A study of Homo sapiens with 18 samples.

Results

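ATF3, GDF15, NUPR1 and PSAT1 are 4 genes of the cellular stress response, taken by symbol from a table of 3074 genes measured in SJSA-1 cells. SJSA-1 is an established human osteosarcoma cell line in which the MDM2 gene is amplified. MDM2 is the ubiquitin ligase that holds the transcription factor p53 in check. Poly(A) RNA was sequenced in 18 libraries, 3 for each of 6 treatments. NCS+MD-224 cells had neocarzinostatin (NCS, a drug that breaks DNA) at 1 µg/mL for 72 h, with the MDM2 degrader MD-224 at 1 µM over the last 24 h. NCS+MI-1061 cells had the same NCS and, over the last 24 h, 1 µM of the MDM2 inhibitor MI-1061, and NCS cells had NCS with vehicle. MD-224 cells and MI-1061 cells had vehicle in place of NCS for 72 h and the compound for the last 24 h, and DMSO cells had vehicle throughout. All groups are 1 cell line, and nothing in the labels says whether the 3 libraries of a group came from separate cultures, so p-values measure the spread between these libraries. RNA was taken from whole cultures, so a change in every cell and a change in the share of cells that express a gene cannot be told apart.

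All 4 genes are known targets of the integrated stress response. In that pathway, kinases that sense amino acid shortage, misfolded protein, double-stranded RNA or haem loss phosphorylate the translation factor eIF2, protein synthesis slows, and the transcription factor ATF4 accumulates and switches on its targets. ATF3 is itself a stress-induced transcription factor of the ATF/CREB family. GDF15 is a secreted cytokine of the TGF-beta superfamily that acts on a brainstem receptor to reduce appetite. NUPR1 is a small chromatin-associated protein that rises under many stresses. PSAT1 is the aminotransferase of the serine synthesis pathway, acting between PHGDH and PSPH. ATF3 and GDF15 are also known p53 targets.

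ATF3 lies on chromosome 1 from 212565407 to 212620777, plus strand, and GDF15 on chromosome 19 from 18386158 to 18389176, plus strand (RefSeq, GRCh38.p14). NUPR1 lies on chromosome 16 from 28532708 to 28538974, minus strand, and PSAT1 on chromosome 9 from 78297125 to 78330093, plus strand. The microRNA gene MIR3189 (18386562 to 18386634) lies inside GDF15 on the same strand, and no other annotated gene overlapped any of the 4. RefSeq names 4 pseudogenes of PSAT1, whose reads the counting could have shared with it. Promoter windows of 300 bases, from 250 before to 50 after a start site, were found in RefSeq for ATF3 (2 windows), GDF15 and PSAT1. Sequence outside these windows, other start sites of a gene included, was not searched. The windows were searched on both strands for the ATF4-type element TGATGNAA, the CRE TGACGTCA, the AP-1 site TGANTCA and the p53 half-site RRRCWWGYYY. R stands for A or G, W for A or T, Y for C or T and N for any base. Only exact matches were counted, so a site with a mismatch to its pattern would be missed. The windows below are shown because they hold the single match, in ATF3, and because GDF15 and PSAT1 were the least alike of the 4 across libraries (Pearson r 0.473 on the log2 scale). Capitals mark the match, TGATGGAA, at position -191 from the start site.
ATF3, chr1:212565157-212565456, plus strand: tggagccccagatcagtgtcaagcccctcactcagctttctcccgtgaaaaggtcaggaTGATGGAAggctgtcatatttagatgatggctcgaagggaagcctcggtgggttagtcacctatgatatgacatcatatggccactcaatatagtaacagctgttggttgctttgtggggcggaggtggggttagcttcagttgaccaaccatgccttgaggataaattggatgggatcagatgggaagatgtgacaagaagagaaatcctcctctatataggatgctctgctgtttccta
GDF15, chr19:18385908-18386207, plus strand: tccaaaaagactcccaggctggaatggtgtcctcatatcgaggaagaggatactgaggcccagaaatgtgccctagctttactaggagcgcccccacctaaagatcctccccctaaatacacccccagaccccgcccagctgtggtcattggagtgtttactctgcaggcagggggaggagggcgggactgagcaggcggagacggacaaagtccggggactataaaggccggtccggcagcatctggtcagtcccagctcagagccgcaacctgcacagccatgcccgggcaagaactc
PSAT1, chr9:78296875-78297174, plus strand: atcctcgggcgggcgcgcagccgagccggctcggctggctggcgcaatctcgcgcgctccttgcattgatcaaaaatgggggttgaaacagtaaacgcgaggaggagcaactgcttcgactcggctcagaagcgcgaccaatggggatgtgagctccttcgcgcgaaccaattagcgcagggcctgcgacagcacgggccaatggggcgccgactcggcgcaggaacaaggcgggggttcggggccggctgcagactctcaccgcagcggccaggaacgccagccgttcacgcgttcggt
The element TGATGNAA occurs in 3.62% of 35116 human promoter windows of this length, TGACGTCA in 1.85%, TGANTCA in 7.71% and the p53 half-site in 6.63%. No exact match of the 4 motifs was found in the GDF15 window, the PSAT1 window or the other ATF3 window (chr1:212614768-212615067). That does not show that these windows lack a p53 site or any other site with mismatches. The match describes these letters only, and binding was not measured.

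The deposited values are normalized counts, that is, reads divided by a size factor per library. Listed genes held between 4490870 and 21816350 reads per library, which is the sum of a selection of genes and not the depth. The highest of these sums rests on an inferred value of 1 read, as it does in 5 of the 18 libraries. Each of the 3074 genes had a higher mean in NCS+MI-1061 than in DMSO, by at least 1.75-fold (median 3.0-fold), so all counts of calls apply to genes chosen in that direction. The ratio of means for NCS+MI-1061 over DMSO was 5.92 for ATF3, 41.8 for GDF15, 13 for NUPR1 and 1.78 for PSAT1. The comparison of NCS+MI-1061 with DMSO is therefore given without a test. PSAT1 sat just inside the lower limit, so with its levels in the other groups any listed gene would have been higher in NCS+MI-1061 than in NCS or MI-1061. Its values in comparisons that hold NCS+MI-1061 are given as a description with no test. For ATF3, GDF15 and NUPR1 the limit alone did not set these directions. Among all tested genes it set the direction of 59.5% in NCS+MI-1061 against NCS, 43.2% in NCS+MI-1061 against MI-1061 and 39.6% in NCS+MD-224 against NCS+MI-1061. Only 2 of 9 osteoblast lineage markers (COL1A2 and SPP1) were listed, so the cell type could not be checked further. At their lowest the genes had 856 reads (ATF3), 3851 (GDF15), 798 (NUPR1) and 1735 (PSAT1), where counting alone gives an error of 3.42%, 1.61%, 3.54% and 2.40%. Values are comparable between libraries for a gene, but not between genes, since they are not divided by transcript length.

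DMSO replicate 2 stood apart from the other DMSO libraries for these genes. ATF3 had 1083, 3389 and 876 normalized counts in DMSO replicates 1, 2 and 3, GDF15 had 4563, 22047 and 3940, NUPR1 had 873, 2630 and 1324, and PSAT1 had 3240, 5121 and 4200. Replicate 2 was the highest for all 4, by 3.46-fold for ATF3, 5.18-fold for GDF15, 2.39-fold for NUPR1 and 1.38-fold for PSAT1 over the mean of replicates 1 and 3. Over all 3073 tested genes the median of this ratio was 0.965, and replicate 2 was the highest in 34.8% of them. GDF15 exceeded 99.7% of tested genes in this ratio, ATF3 99.0%, NUPR1 96.4% and PSAT1 81.3%. A further 5 genes of the integrated stress response were raised with them in this library: CHAC1, which degrades glutathione (5.62-fold), ADM2, a peptide hormone (4.49-fold), SESN2, a nutrient-stress regulator (3.21-fold), CEBPB, a transcription factor (2.20-fold), and PPP1R15A, which directs dephosphorylation of eIF2 (2.00-fold). ALDH1L2 (0.876) and HMOX1 (0.889), the other listed genes of that pathway, were not. Other lists moved in this library too. All 3 listed genes of the unfolded protein response were highest in it (median 2.18-fold), as were 2 of 3 haematopoietic markers (median 2.32-fold). Of 36 listed p53 targets 16 were highest in it (median 1.07-fold, up to 3.21-fold for SESN2, which is on both lists and is named above). Among them CDKN1A was at 1.04-fold, and MDM2 at 1.36-fold was close to PSAT1. The values of the 4 genes against DMSO, and the counts of the gene lists, are therefore also given without this library. It was set apart by its values of these same genes, so calls made without it are a description and no independent support.

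**Figure D1:**
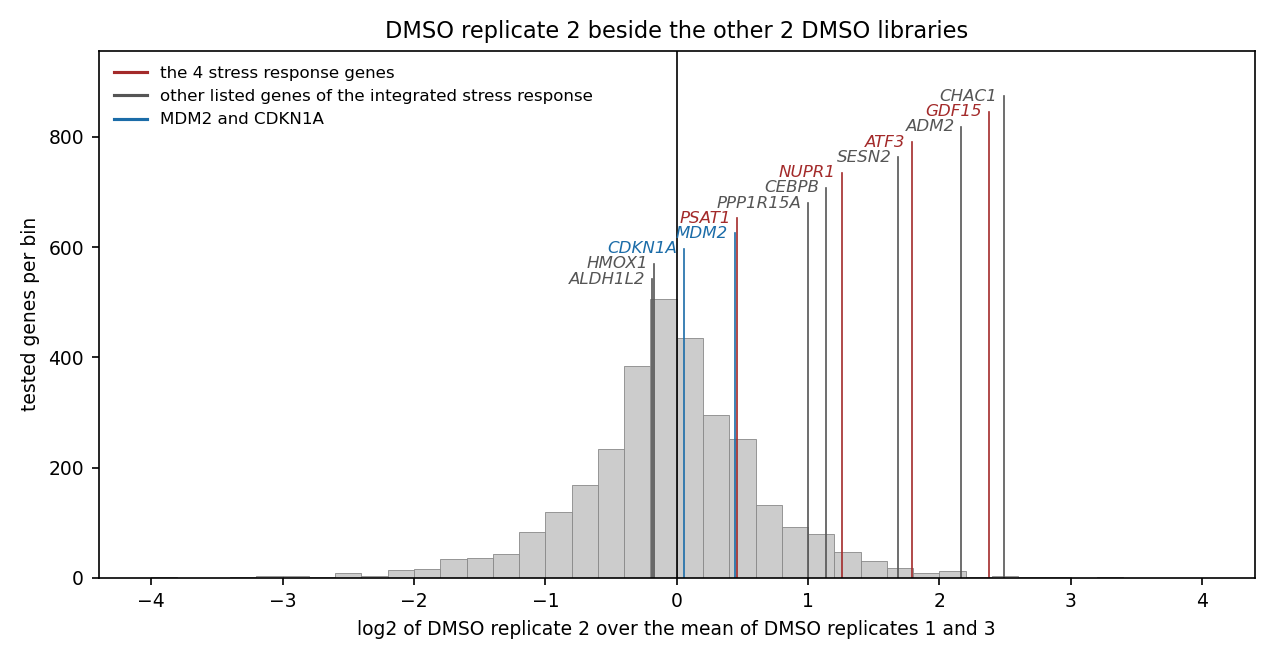
Histogram of the log2 ratio of DMSO replicate 2 to the mean of DMSO replicates 1 and 3 over 3073 tested genes (vertical axis, genes per bin), with lines for the 4 stress response genes (red), other listed genes of the integrated stress response (grey) and MDM2 and CDKN1A (blue). GDF15 (5.18-fold) and ATF3 (3.46-fold) lie in the far right tail beside CHAC1 (5.62-fold), while CDKN1A (1.04-fold) lies near the centre and MDM2 (1.36-fold) beside PSAT1 (1.38-fold).

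ATF3, the transcription factor, was highest wherever MI-1061 was present. Its normalized counts were 6273, 5138 and 4866 in NCS+MD-224 libraries, 11329, 9643 and 10663 in NCS+MI-1061 libraries and 4195, 3136 and 3834 in NCS libraries. They were 2086, 2612 and 1858 in MD-224 libraries, 8848, 7587 and 10891 in MI-1061 libraries and 1083, 3389 and 876 in DMSO libraries. By mean the order was NCS+MI-1061, MI-1061, NCS+MD-224, NCS, MD-224 and DMSO. NCS+MI-1061 overlapped MI-1061, and MD-224 overlapped DMSO, while the other neighbours in this order did not overlap.

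GDF15, the secreted cytokine, had the widest range of the 4, with 41.8 times between its highest and lowest group means. It had 241246, 118241 and 132370 normalized counts in NCS+MD-224 libraries, 479833, 393669 and 404317 in NCS+MI-1061 libraries and 40968, 29815 and 32252 in NCS libraries. It had 36540, 51058 and 31947 in MD-224 libraries, 255976, 319735 and 314112 in MI-1061 libraries and 4563, 22047 and 3940 in DMSO libraries. Every treated library was above every DMSO library. The order by mean was NCS+MI-1061, MI-1061, NCS+MD-224, MD-224, NCS and DMSO, and MD-224 and NCS were the only neighbours in that order whose libraries overlapped.

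NUPR1, the chromatin-associated stress protein, stood out in NCS+MI-1061. It had 6933, 6411 and 3159 normalized counts in NCS+MD-224 libraries, 19991, 22711 and 20029 in NCS+MI-1061 libraries and 3323, 3310 and 3876 in NCS libraries. It had 3460, 5288 and 4403 in MD-224 libraries, 6260, 7740 and 6831 in MI-1061 libraries and 873, 2630 and 1324 in DMSO libraries. NCS+MI-1061 lay above all other groups and DMSO below all others. Between them came MI-1061, NCS+MD-224, MD-224 and NCS, and each of these overlapped the next. NCS+MD-224 replicate 3 was at 0.474 of the mean of the other NCS+MD-224 libraries.

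PSAT1, the serine synthesis enzyme, had one of its higher levels with DMSO. It had 3101, 2350 and 1757 normalized counts in NCS+MD-224 libraries, 7964, 7491 and 6862 in NCS+MI-1061 libraries and 1843, 1951 and 1847 in NCS libraries. It had 2056, 2359 and 2225 in MD-224 libraries, 4868, 5533 and 4871 in MI-1061 libraries and 3240, 5121 and 4200 in DMSO libraries. The order by mean was NCS+MI-1061, MI-1061, DMSO, NCS+MD-224, MD-224 and NCS. MI-1061 overlapped DMSO and NCS+MD-224 overlapped MD-224. The NCS libraries, with an SD of 3.27% of the mean, were the lowest group and lay below every MD-224 library.

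**Figure D2:**
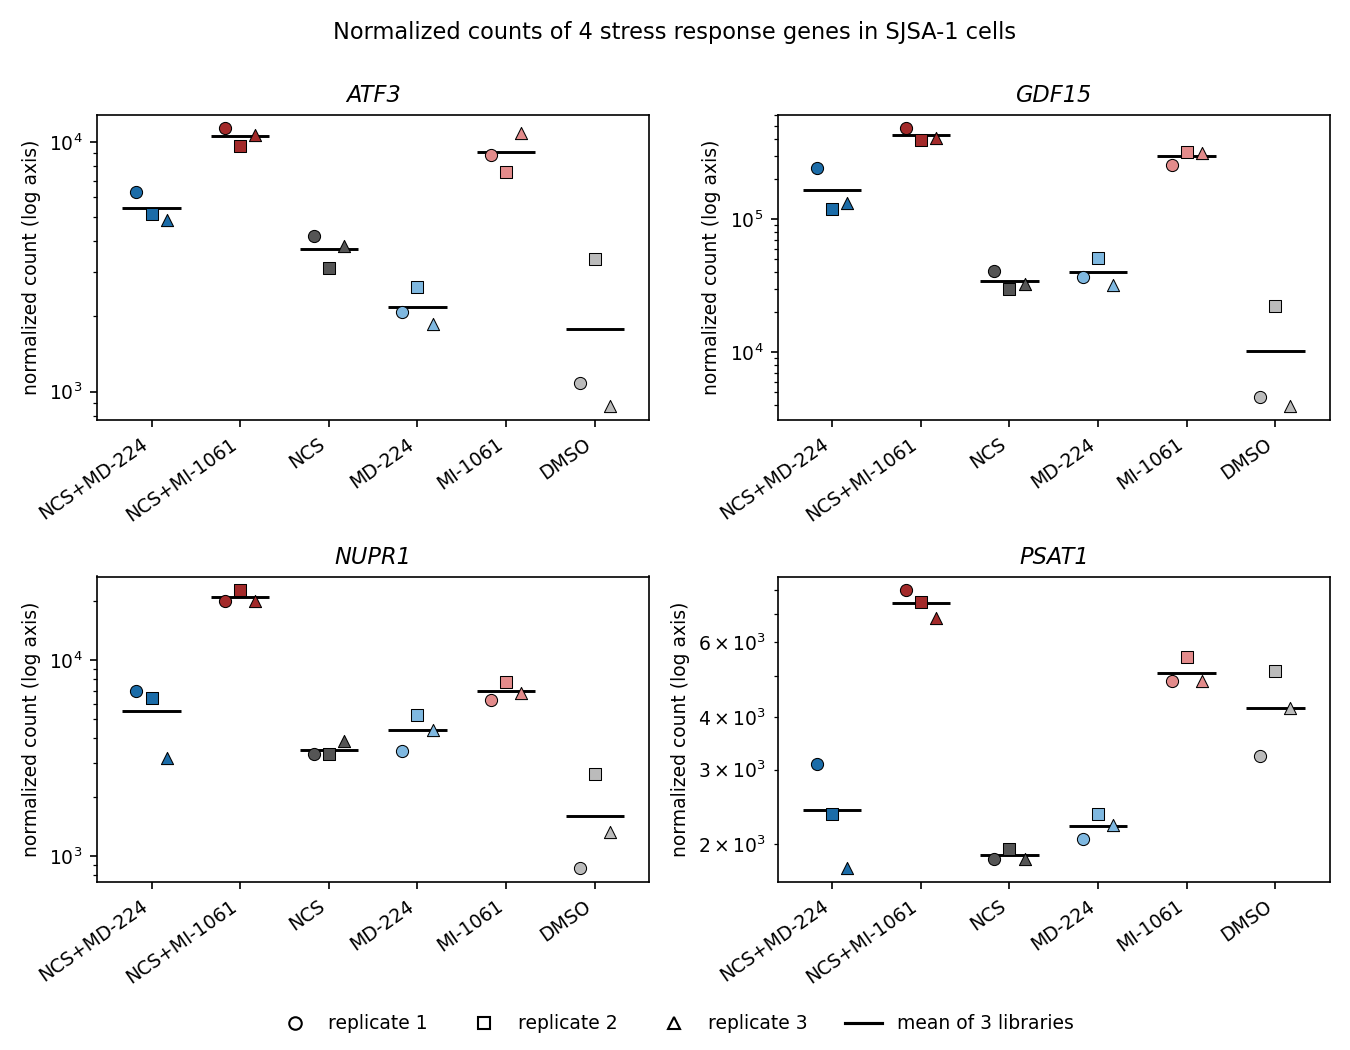
Normalized counts (log axis) of ATF3, GDF15, NUPR1 and PSAT1 in 6 groups of SJSA-1 cells, with 1 point per library, shaped by replicate number, and a line at the mean of 3 libraries. NCS+MI-1061 has the highest mean for each gene, and PSAT1 is lower with NCS (1843 to 1951) than with DMSO (3240 to 5121).

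NCS alone was compared with DMSO to see what 72 h of the DNA-breaking drug did. ATF3, GDF15 and NUPR1 rose and PSAT1 fell. GDF15 rose 4.63-fold (log2 2.21, SE 0.44; limma adjusted p = 0.000575), ATF3 2.50-fold (log2 1.32, SE 0.33; adjusted p = 0.00327) and NUPR1 2.41-fold (log2 1.27, SE 0.31; adjusted p = 0.00293). PSAT1 was at 0.457-fold of DMSO (log2 -1.13, SE 0.18; adjusted p = 6.77e-05), and only 0.163% of tested genes had a smaller log2 change. Of all tested genes limma called 54% higher and 1.3% lower at an adjusted p under 0.05, so a count of 3 higher among 4 is near the background. GDF15 and NUPR1 libraries did not overlap with DMSO (as in 58.7% of tested genes), nor did those of PSAT1, in the lower direction (2.8%). The median of the 4 was a log2 change of 1.30, and 0.66 over all tested genes. ATF3 libraries overlapped, because DMSO replicate 2 lay within the NCS range. Without that library the log2 change was 1.92 for ATF3 and 3.0 for GDF15 (both folds over 1.5 times larger), 1.70 for NUPR1 and -0.97 for PSAT1, and all 4 kept their calls.

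With MI-1061 alone, compared with DMSO, ATF3, GDF15 and NUPR1 rose. GDF15 rose 40.2-fold (log2 5.33, SE 0.44; limma adjusted p = 1.27e-08), ATF3 6.10-fold (log2 2.61, SE 0.33; adjusted p = 2.02e-06) and NUPR1 4.77-fold (log2 2.25, SE 0.31; adjusted p = 5.52e-06). PSAT1 did not pass the test (1.23-fold, 95% interval 0.955 to 1.6; adjusted p = 0.127). The 3 risen genes had no overlap of libraries, like 65.2% of tested genes. Among all tested genes 67.6% were called higher and 4.46% lower. The median log2 change was 2.43 for the 4 and 1.0 for all tested genes. Without DMSO replicate 2 the log2 change was 3.21 for ATF3 and 6.12 for GDF15 (both folds over 1.5 times larger) and 2.68 for NUPR1, all called, and PSAT1 was called higher (log2 0.46; adjusted p = 0.0313).

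MD-224 alone, compared with DMSO, raised GDF15 5.32-fold (log2 2.41, SE 0.44; limma adjusted p = 0.000397) and NUPR1 2.98-fold (log2 1.58, SE 0.31; adjusted p = 0.000768). It lowered PSAT1 to 0.537-fold (log2 -0.90, SE 0.18; adjusted p = 0.000693), with no overlap of libraries, which 3.38% of tested genes also showed in that direction. ATF3 did not pass the test (1.47-fold, 95% interval 0.904 to 2.37; adjusted p = 0.186). ATF3 was called higher without DMSO replicate 2 (log2 1.15, limma adjusted p = 0.00016). It was not called without DMSO replicate 1 (log2 0.33, adjusted p = 0.484) or replicate 3 (0.17, 0.694). The log2 change without replicate 2 was 3.20 for GDF15, 2.01 for NUPR1 and -0.74 for PSAT1, which kept their calls. The calls over the whole table were 39.9% higher and 2.8% lower (1225 and 86 genes, but 749 and 46 with only these groups fitted, and 53 lower without DMSO replicate 1), and 42.3% of tested genes had no overlap in the higher direction, as GDF15 and NUPR1 did. The median log2 change was 1.06 for the 4 and 0.48 for all tested genes. The comparisons of NCS, MI-1061 and MD-224 share the DMSO libraries, so their values are not independent of each other.

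After NCS, the inhibitor raised ATF3, GDF15 and NUPR1. In NCS+MI-1061, compared with NCS, GDF15 rose 12.5-fold (log2 3.64, SE 0.44; limma adjusted p = 1.2e-06), NUPR1 5.97-fold (log2 2.58, SE 0.31; adjusted p = 1.22e-06) and ATF3 2.85-fold (log2 1.51, SE 0.33; adjusted p = 0.000614). PSAT1 was 3.95-fold higher (log2 1.98), where the listing limit alone required 3.89-fold (log2 1.96), and is not tested. Libraries of the groups did not overlap for any of the 4. By limma 70.5% of tested genes were called higher and 0.748% lower, and 78.7% had no overlap in the higher direction. The median log2 change was 2.28 for the 4, the untested PSAT1 value included, and 0.97 for all tested genes.

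After NCS, GDF15 rose with the degrader and the other 3 genes did not pass the test. In NCS+MD-224, compared with NCS, GDF15 rose 4.58-fold (log2 2.19, SE 0.44; limma adjusted p = 0.00244), a change that exceeded those of 99.4% of tested genes. ATF3 was at 1.46-fold (95% interval 0.901 to 2.36; adjusted p = 0.289), NUPR1 at 1.49-fold (0.943 to 2.35; adjusted p = 0.236) and PSAT1 at 1.24-fold (0.963 to 1.61; adjusted p = 0.245). All 3 ATF3 libraries of NCS+MD-224 lay above those of NCS, which 40.8% of tested genes also showed. Limma called 15.1% of tested genes higher (465 genes, but 755 with the replicate number as a block, 186 without NCS+MD-224 replicate 1 and 283 to 298 without 1 of the NCS libraries). It called 0% lower, with 3 genes lower at an unadjusted p under 0.05, against 0 by edgeR and 1 by DESeq2. NUPR1 and PSAT1 were called higher without NCS+MD-224 replicate 3, the lowest library for both (log2 0.93, adjusted p = 0.0450, and log2 0.52, adjusted p = 0.0434), and ATF3 when only these groups were fitted (adjusted p = 0.0233).

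**Figure D3:**
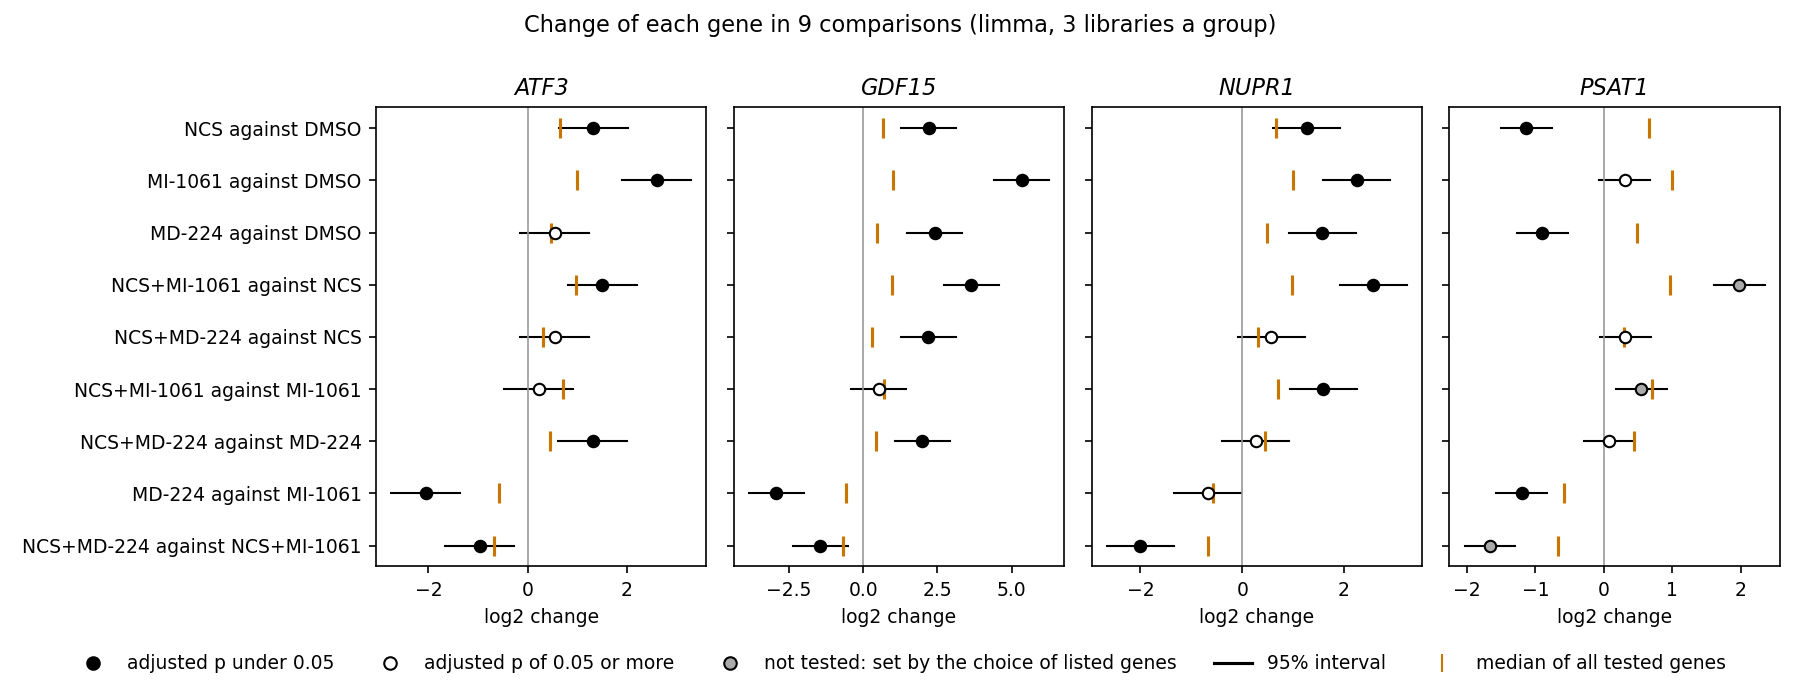
Log2 change of each gene in 9 comparisons (points) with 95% intervals (lines), filled where the limma adjusted p was under 0.05, and the median of 3073 tested genes (orange ticks). Grey points mark PSAT1 values whose direction follows from the choice of listed genes, and they are not tested. GDF15 lies right of the orange tick in the 5 comparisons of a treatment with NCS or DMSO, and PSAT1 lies left of zero with NCS (log2 -1.13) and MD-224 (log2 -0.90).

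NCS was also compared on top of each compound. In NCS+MI-1061, compared with MI-1061, NUPR1 rose 3.02-fold (log2 1.59, SE 0.31; adjusted p by limma = 0.000256). PSAT1 was 1.46-fold higher (log2 0.55), where the listing limit alone required 1.44-fold, and is not tested. ATF3 (1.17-fold, 95% interval 0.721 to 1.89; adjusted p = 0.561) and GDF15 (1.44-fold, 0.756 to 2.73; adjusted p = 0.303) did not pass the test, although the GDF15 libraries did not overlap (as in 60.2% of tested genes) and its adjusted p was 0.00466 with only these groups fitted. The table as a whole had 55.9% called higher and 10.1% lower, with a median log2 change of 0.71. The median of the 4, the untested PSAT1 value included, was 0.54. In NCS+MD-224, compared with MD-224, GDF15 rose 3.99-fold (log2 2.00, SE 0.44; adjusted p = 0.00197) and ATF3 2.49-fold (log2 1.32, SE 0.33; adjusted p = 0.00474). NUPR1 (1.20-fold, 0.763 to 1.90; adjusted p = 0.515) and PSAT1 (1.06-fold, 0.819 to 1.37; adjusted p = 0.729) did not pass. There 39% of tested genes were called higher and 0.586% lower, and 48.5% had no overlap in the higher direction, as GDF15 and ATF3 did. The median log2 change was 0.79 for the 4 and 0.45 for all tested genes.

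The degrader and the inhibitor were compared at the same dose and time, without and with NCS. Without NCS, MD-224 cells had less GDF15 (0.132-fold; log2 -2.92, SE 0.44; limma adjusted p = 2.41e-05), ATF3 (0.240-fold; log2 -2.06, SE 0.33; adjusted p = 4.57e-05) and PSAT1 (0.435-fold; log2 -1.20, SE 0.18; adjusted p = 1.75e-05) than MI-1061 cells. NUPR1 was at 0.624-fold (95% interval 0.396 to 0.985; adjusted p = 0.0677). Its libraries did not overlap (as in 49.2% of tested genes), and it was called lower with the replicate number as a block (adjusted p = 0.0336) or with only these groups fitted (0.0096). Limma called 49.8% of tested genes lower and 12.4% higher, and the median log2 change was -1.63 for the 4 and -0.58 for all tested genes. The protein levels of MDM2 and p53 were not measured here, so these values compare the compounds at 1 µM and not at a matched effect on their target.

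With NCS, ATF3, GDF15 and NUPR1 were lower with the degrader than with the inhibitor. In NCS+MD-224, compared with NCS+MI-1061, NUPR1 was at 0.249-fold (log2 -2.01, SE 0.31; limma adjusted p = 4.25e-05), GDF15 at 0.367-fold (log2 -1.45, SE 0.44; adjusted p = 0.0101) and ATF3 at 0.513-fold (log2 -0.96, SE 0.33; adjusted p = 0.0200). PSAT1 was at 0.315-fold (log2 -1.67), where the listing limit alone required 0.320-fold or less, and is not tested. Libraries of these groups did not overlap for any of the 4. By limma 54.7% of tested genes were called lower and 0.748% higher, and 67.7% had no overlap in the lower direction. The median log2 change was -1.56 for the 4, the untested PSAT1 value included, and -0.67 for all tested genes. The ATF3 call was lost without NCS+MD-224 replicate 2 (log2 -0.93, adjusted p = 0.0534) or replicate 3 (-0.89, 0.0625) or NCS+MI-1061 replicate 1 (-0.91, 0.0574).

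Whether NCS altered the response to a compound was tested as an interaction, the compound's log2 change after NCS minus that without NCS. The PSAT1 response to MD-224 was more positive after NCS, by 1.21 (SE 0.25; limma adjusted p = 0.00669): a log2 change of 0.32 after NCS and -0.90 without it. Expressed over DMSO, NCS+MD-224 had a PSAT1 log2 change of -0.81, against -2.03 for the sum of the NCS and MD-224 changes. For MI-1061 the PSAT1 difference was 1.68, and the listing limit alone required 1.66 of a gene with its levels in NCS, MI-1061 and DMSO. That value is therefore no independent result and has no test here, and the same holds for the log2 change of 0.85 over DMSO with both agents, beside a sum of -0.83. The limit set the direction of this difference in 25.5% of tested genes.

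The GDF15 response to MI-1061 was smaller after NCS (log2 difference -1.69, SE 0.62; adjusted p = 0.0358), at 3.64 after NCS and 5.33 without it, and the log2 change over DMSO was 5.85 with both agents, against a sum of 7.54. This call was lost in 8 of 12 fits that left out 1 library, namely without NCS+MI-1061 replicate 2 or 3, NCS replicate 1 or 3, MI-1061 replicate 2 or 3, or DMSO replicate 1 or 3 (log2 difference -1.73 to -1.24), and by edgeR and DESeq2 on recovered reads (log2 difference -1.23 by both; adjusted p = 0.134 and 0.104), while without DMSO replicate 2 the difference was -2.48. ATF3 had a difference of -1.10 for MI-1061 (95% interval -2.08 to -0.11, limma adjusted p = 0.0651). It was called in 1 of 12 fits that left out 1 library, the one without DMSO replicate 2 (-1.70, adjusted p = 5.81e-05). NUPR1 had 0.32 (-0.61 to 1.25; adjusted p = 0.581). Of all tested genes 23.5% were called higher and 20.8% lower in this interaction. For MD-224 the differences were -0.01 for ATF3 (-0.99 to 0.98; adjusted p = 0.996), -0.22 for GDF15 (-1.53 to 1.10; adjusted p = 0.862) and -1.0 for NUPR1 (-1.93 to -0.07; adjusted p = 0.162). For this difference 4.07% of tested genes were called higher and 7.19% lower (346 in all, but 612 with the replicate number as a block and 172 to 219 without NCS+MD-224 replicate 1, NCS replicate 2 or 3, or MD-224 replicate 3). Without DMSO replicate 2 NUPR1 was called lower here (-1.43; adjusted p = 0.0149).

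**Figure D4:**
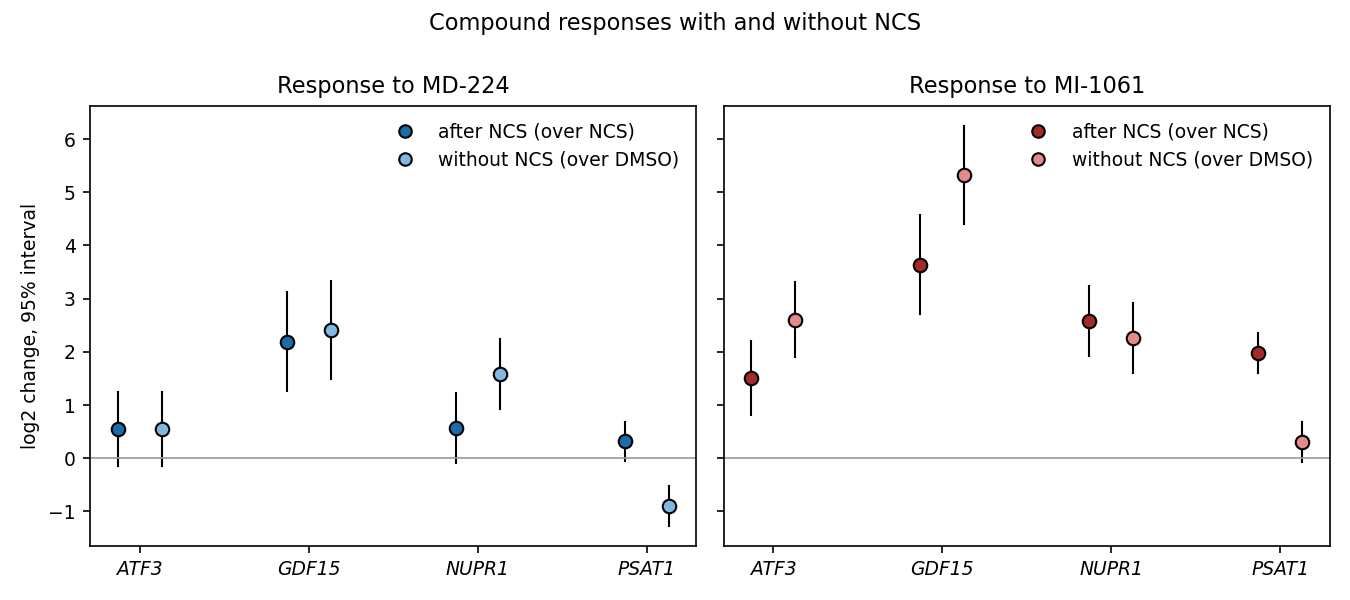
Log2 change (points) with 95% intervals for each gene in response to MD-224 (left) and MI-1061 (right), after NCS (dark, over NCS) and without NCS (light, over DMSO). For MD-224 the PSAT1 intervals after NCS and without NCS do not overlap, for MI-1061 the PSAT1 gap follows from the choice of listed genes, and for MI-1061 the GDF15 point is lower after NCS (3.64) than without it (5.33).

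The other listed genes of the integrated stress response did not all move together. Only 7 of the 40 genes on that list were in the table, and the rest, ATF4, DDIT3, ASNS and TRIB3 among them, are not analysed here. In NCS+MI-1061, compared with NCS, 6 of the 7 were called higher (median log2 1.34, beside 0.97 and 70.5% called higher over all tested genes). HMOX1, the haem-degrading enzyme, rose 2.96-fold (limma adjusted p = 4.67e-06). For the other 5, with SESN2 at 5.42-fold and CHAC1 at 2.54-fold, the listing limit alone set the direction. With MI-1061, compared with DMSO, 4 rose (67.6% of all tested genes) and ALDH1L2, a mitochondrial folate enzyme, fell (0.492-fold; adjusted p = 0.0156), with a median log2 of 1.06. SESN2 rose 5.86-fold there (adjusted p = 1.6e-06). CHAC1 (1.51-fold; adjusted p = 0.284) and ADM2 (1.58-fold; adjusted p = 0.185) did not pass, and both were among the genes raised in DMSO replicate 2. With NCS 2 of the 7 rose (54% of all tested genes), HMOX1 (1.97-fold; adjusted p = 0.00118) and ALDH1L2 (1.81-fold; adjusted p = 0.0498), and with MD-224 HMOX1 alone (1.64-fold; adjusted p = 0.0134), where 39.9% of all tested genes rose. In NCS+MD-224, compared with NCS, HMOX1 (1.94-fold; adjusted p = 0.00546) and SESN2 (2.1-fold; adjusted p = 0.0293) rose. These counts against DMSO differed without DMSO replicate 2, the library set apart by its values of stress response genes. Without it 6 of the 7 rose with MI-1061 and ALDH1L2 fell (0.472-fold; adjusted p = 0.0242), while 65.1% of all tested genes rose. CHAC1 (2.70-fold; adjusted p = 0.000724) and ADM2 (2.62-fold; adjusted p = 0.000622) were then called. Without that library 5 of the 7 rose with NCS (47.9% of all tested genes), ALDH1L2 no longer among them (1.73-fold; adjusted p = 0.110), and 5 with MD-224 (36.3%). SESN2 is also a known p53 target.

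Few genes around PSAT1 were listed. Of 16 genes of serine and glycine synthesis 2 were, ALDH1L2 and GLDC, the glycine-cleaving decarboxylase. GLDC averaged 93.8 ± 22.9 normalized counts in NCS+MD-224, 844 ± 632 in NCS+MI-1061, 57.6 ± 10.8 in NCS, 37.6 ± 22.7 in MD-224, 202 ± 130 in MI-1061 and 64.5 ± 27.7 in DMSO (SD, n = 3 each). It was 12.2-fold higher in NCS+MI-1061 than in NCS. Of the eIF2 kinases and their regulators 2 of 11 were listed. EIF2AK3, the kinase of the endoplasmic reticulum, was 2.07-fold higher in NCS+MI-1061 than in NCS, and EIF2AK4, the kinase that senses amino acid shortage, 1.86-fold. For GLDC and both kinases the listing limit set that direction, so it is not tested. In MI-1061 against DMSO, GLDC was 2.93-fold higher (limma adjusted p = 0.0252), EIF2AK3 2.01-fold (4.48e-05) and EIF2AK4 1.41-fold (7.41e-05). Of all tested genes 67.6% were called higher there. Against DMSO, none of these genes was called with NCS, and only EIF2AK4 with MD-224 (1.26-fold; limma adjusted p = 0.00671).

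The p53 target list (without the 4 genes) was nearly complete in the table, at 36 of 38. With MI-1061, compared with DMSO, all 36 rose (67.6% of all tested genes did), with a median log2 change of 2.41. With MD-224 30 rose (median 1.21; 39.9% of all tested genes) and with NCS 26 rose (median 0.65; 54%). Without DMSO replicate 2 these counts were 36, 32 (with 1 lower) and 26, beside 65.1%, 36.3% and 47.9% of all tested genes called higher. After NCS 36 were called higher with MI-1061 (median 2.43; 70.5%) and 35 with MD-224 (median 1.20; 15.1%). In NCS+MI-1061 against NCS the listing limit alone set the direction of MDM2 and SESN2, both among the 36, but not that of CDKN1A. It did so for 59.5% of all tested genes. How many of the 36 it set was not counted, so that count is a description only. GDF15 exceeded the median of this list in each of these 5 comparisons, and ATF3 was below it in both MD-224 comparisons and in NCS+MI-1061 against NCS (1.51). CDKN1A, the cell cycle inhibitor p21, rose 5.47-fold with NCS, 30.1-fold with MI-1061 and 7.67-fold with MD-224 (adjusted p = 3.36e-08, 3.23e-13 and 1.75e-09). In the AP-1 and ATF family, to which ATF3 belongs, 12 of 23 genes were listed. With MI-1061 10 of them rose and 1 fell (median log2 1.52, beside 1.0 over all tested genes). With NCS 8 rose and 1 fell (0.77, beside 0.66), near the 54% called higher over all tested genes. With MD-224 2 rose and FOSL1 fell to 0.415-fold (0.18, beside 0.48). In fits without DMSO replicate 2 the counts were 11, 7 and 3 higher, with 1 lower in each. Of all tested genes 65.1%, 47.9% and 36.3% were then called higher, and 4.17%, 1.43% and 3.25% lower.

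The remaining lists were read in MI-1061 against DMSO and in NCS+MI-1061 against NCS, where 67.6% and 70.5% of all tested genes were called higher (median log2 1.0 and 0.97). Of 18 genes of the unfolded protein response 3 were listed, and 2 were called higher in both comparisons (median log2 0.95 and 1.00), near that background. Of 22 genes around TGF-beta family ligands and GDF15 reception 5 were listed: BMP2, BMP7, GDF9, the protease BMP1 and the co-receptor RET. Of these, 4 and 5 were called higher (1.98 in both). Of 15 NRF2 target genes 5 were listed, of which 4 and 5 were called higher (2.18 and 0.87), and both of the listed heat shock genes (2 of 11) were called higher (1.93 and 2.14). In NCS+MI-1061 against NCS the listing limit alone set the direction of 59.5% of all tested genes. The counts of these lists in that comparison are therefore a description only. Without DMSO replicate 2 the counts with MI-1061 against DMSO were the same for these lists, beside 65.1% of all tested genes. Among markers of other cell types 3 of 6 haematopoietic genes were listed (ITGAM, CD68 and LAPTM5), 1 of 3 endothelial genes (VWF) and none of 5 epithelial genes. The haematopoietic markers summed to 3418 to 4506 normalized counts in NCS+MD-224, 4852 to 4962 in NCS+MI-1061, 2302 to 2498 in NCS, 783 to 1085 in MD-224, 2412 to 3052 in MI-1061 and 440 to 1111 in DMSO. The listed osteoblast lineage genes COL1A2 and SPP1 summed to 42592 to 55354 in NCS+MD-224, 40586 to 50356 in NCS+MI-1061, 38211 to 48449 in NCS, 27496 to 41493 in MD-224, 8144 to 14624 in MI-1061 and 11116 to 20332 in DMSO. The part of these markers in the results above was not tested. VWF was at 64.5 to 99.1 in NCS+MD-224, 147 to 270 in NCS+MI-1061, 95.2 to 150 in NCS, 62.0 to 151 in MD-224, 1513 to 2535 in MI-1061 and 46.0 to 89.7 in DMSO.

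The 4 genes were set beside each other over the 18 libraries on the log2 scale, as a description. ATF3 and GDF15 were the most alike (Pearson r 0.956), followed by GDF15 and NUPR1 (0.904) and ATF3 and NUPR1 (0.858), while PSAT1 had 0.473 to 0.559 with the others. Libraries of a group share their treatment, so the 18 points are not independent. Within groups, as deviations from the group means, ATF3 and GDF15 had r 0.939 and NUPR1 and PSAT1 0.884. These deviations include DMSO replicate 2, at 5.18-fold (GDF15) and 3.46-fold (ATF3) of the mean of the other DMSO libraries. That library weighs heavily in such values, and within-group correlations without it were not computed. CDKN1A had r 0.964 with GDF15 and 0.370 with PSAT1, and 0.031 (NUPR1) to 0.388 (GDF15) within groups. MDM2 had r 0.948 with GDF15 and 0.611 with PSAT1, and within groups 0.548 with ATF3, 0.668 with GDF15, 0.780 with NUPR1 and 0.710 with PSAT1.

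Likeness was sought among 2399 genes with a mean of at least 50 and a current RefSeq symbol. Those most like each of the 4 over the 18 libraries differed from gene to gene. For ATF3 they were the pseudogene HSD3BP4 (0.962), GDF15, CEBPB (0.953), GADD45A and PDE4C. For GDF15 they were BBC3, which encodes the apoptosis inducer PUMA (0.980), CDC42BPG, GAS6-AS1, EDA2R and UNC5B-AS1. For NUPR1 they were ADAMTS7, a metalloprotease (0.982), MCC, DENND6B, FUCA1 and ITIH5. For PSAT1 they were the amino acid transporter SLC16A10 (0.961), the recombination protein RAD51C (0.922), TAF3, CPSF4 and DCAF17. In likeness to ATF3, GDF15 had rank 2, NUPR1 rank 207 and PSAT1 rank 1809.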

How the data were processed

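The authors deposited 1 table of normalized counts (unit: signal) for 18 libraries. The submitters' processing notes name HISAT2 2.0.5.2, the counter featureCounts 1.6.3 and the package DESeq2 2.11.40.6, with build GRCh38, and give no settings or order. In each library all values were whole multiples of 1 step (100% within 0.01 reads), so reads were recovered, with size factors of 0.651 to 1.65. In 5 of the 18 libraries, the one at 1.65 included, the lowest value was 2 to 6 reads, and the step was inferred by dividing the smallest values by small whole numbers. How genes were chosen for the table, and whether counting used strand, is not given in the sources used here.

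Values were taken as log2(value + 1) where 3 or more libraries had a value of 10 or more (3073 of 3074 genes, all 4 members included). All 6 groups were fitted together in limma 3.58.1 (trended variance, R 4.3.3), with p-values adjusted by Benjamini-Hochberg over the tested genes of each comparison and calls under 0.05. Folds come from the limma estimates. The listing limit is the value at which NCS+MI-1061 would be scaled to the lowest listed ratio over DMSO, with the other groups as measured. Recovered reads were also tested with DESeq2 1.42.0 and with the quasi-likelihood test of edgeR 4.0.16, as planned for comparisons without NCS and, for those with NCS, added after the data were seen. The members, gene lists and tests were chosen with earlier results of these data known. Named genes were the 4 members, a fixed set (MDM2, CDKN1A, SESN2 and CEBPB among the listed), up to 4 called genes of each list with the smallest p, and the 5 genes most like each member. CHAC1, ADM2 and other values outside that rule were chosen after they were seen. Across genes, libraries of the same group correlated with r 0.9636 to 0.9921. Like-numbered libraries deviated together (correlation over 0.1 in every replicate) in 7 of 9 pairwise comparisons, the only source of a pairing. The treatment label writes the inhibitor with other digits than the titles, which were followed. Plots were made in Python 3.11.15 with matplotlib 3.10.9.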

Additional observations from a re-analysis of the deposited data

Results flagged for a closer look

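In 2 cases the response of a gene to a compound differed between cells with and without NCS by the test of that difference. The log2 change of PSAT1 with MD-224 was more positive after NCS by 1.21 (SE 0.25; limma adjusted p = 0.00669). It was -0.90 without NCS and 0.32, not called, after NCS. The difference lay between 1.01 and 1.42 over 12 fits without 1 library and kept its call in them. The log2 change of GDF15 with MI-1061 differed by -1.69 (SE 0.62; adjusted p = 0.0358). It lay between -2.48 and -1.24 over the same kind of fits and lost its call in 8 of them (NCS+MI-1061 replicate 2 or 3, NCS replicate 1 or 3, MI-1061 replicate 2 or 3, or DMSO replicate 1 or 3 left out). The difference of PSAT1 with MI-1061, 1.68, is listed as a value only: the choice of listed genes by NCS+MI-1061 over DMSO alone required 1.66 of a gene with its other levels, so its test is void.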

How the results depend on the processing

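For the 4 genes in 9 comparisons and 2 interactions, leaving out the 4 PSAT1 results not tested, 539 of 562 alternative values were called, or not called, as in the values reported, 23 were not, and no called value changed sign. With only the compared groups fitted, ATF3 in NCS+MD-224 against NCS (0.55; adjusted p = 0.0233), GDF15 in NCS+MI-1061 against MI-1061 (0.52; 0.00466) and NUPR1 in MD-224 against MI-1061 (-0.68; 0.0096) were called, and 795 genes in place of 1311 were called in MD-224 against DMSO. The replicate number as a block, where libraries pair by their correlation, called NUPR1 in MD-224 against MI-1061 (-0.68; 0.0336) and 755 genes in place of 465 in NCS+MD-224 against NCS. For the interaction with MD-224 it called 612 genes in place of 346, where the numbers do not pair by that rule, and it changed no other call of the 4. GDF15 in the interaction of NCS and MI-1061 was -1.23 by edgeR and -1.23 by DESeq2, and not called. Over fits without 1 library the log2 values of results whose call changed ran from 0.13 to 0.46 (PSAT1, MI-1061 against DMSO), 0.17 to 1.15 (ATF3, MD-224 against DMSO), 0.37 to 0.93 and 0.11 to 0.52 (NUPR1 and PSAT1, NCS+MD-224 against NCS), -1.07 to -0.89 (ATF3, NCS+MD-224 against NCS+MI-1061), -1.70 to -0.72 and -2.48 to -1.24 (ATF3 and GDF15, interaction with MI-1061) and -1.43 to -0.64 (NUPR1, interaction with MD-224). Genes called ran from 186 to 463 in NCS+MD-224 against NCS and from 172 to 412 for the interaction with MD-224. The cause of these changes was not tested. Another scaling was not tried, since size factors cannot be recomputed from genes selected in 1 direction.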
